A study of Homo sapiens with 6 samples.

Results

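YAP1 and WWTR1 (the gene of TAZ), the TEAD factors TEAD1 and TEAD4 and 6 classic target genes, CCN1, CCN2, ANKRD1, AMOTL2, LATS2 and AJUBA, were followed in SW480 cells with and without knockdown of HPSE, the gene of heparanase. The 10 genes were chosen by name, and an Ensembl identifier of the deposited table matched 8 of them, among 59192 features in all. AMOTL2 and AJUBA were matched by no identifier and were not analysed here. CCN1 and CCN2 carried the names CYR61 and CTGF in older annotations.

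SW480 is a cell line from a human colorectal adenocarcinoma. RNA was sequenced from 3 SW480-KD1 and 3 SW480-NC libraries, each from an independent experiment. Both lines were infected with a Cas9 lentivirus and selected with puromycin, and both then received a guide RNA virus that also carries EGFP. SW480-KD1 holds a guide against HPSE (labelled SW480-45), and SW480-NC a control guide. The knockdown therefore rests on 1 guide, and whether the lines are clones is not given in the sources used here.

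The Hippo pathway is a kinase cascade that restrains growth and responds to cell density and to tension in the actin cytoskeleton. When its kinases are active, LATS1 and LATS2 phosphorylate YAP and TAZ, which then stay in the cytoplasm or are degraded. When the kinases are quiet, YAP and TAZ enter the nucleus and bind TEAD factors on DNA, where they switch on genes such as CCN1 and CCN2. In the intestine this program is known for its part in regeneration and in colorectal tumours. Much of this control acts on the proteins, which RNA sequencing does not measure.

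The DNA element that TEAD factors bind has the core GGAATG. RefSeq promoter windows of GRCh38.p14, from 250 bases before to 50 after a transcription start, were held for 7 of the 10 genes, in 10 windows. The core was found in 6 of these windows and in 14.0% of all 35116 windows, searched on both strands. No window was held for CCN1, TEAD1 or TEAD4, so their promoters were not searched. The windows of CCN2, ANKRD1 and LATS2 are shown because these are the measured target genes with a core in a window held here. They stand for different patterns in the RNA: CCN2 varied widely between libraries, ANKRD1 was close to 0, and LATS2 was higher in every SW480-KD1 library. The windows are chr6:131951323-131951622, chr10:90921038-90921337 and chr13:21061537-21061836, all on the minus strand. Capitals mark the core.
CCN2: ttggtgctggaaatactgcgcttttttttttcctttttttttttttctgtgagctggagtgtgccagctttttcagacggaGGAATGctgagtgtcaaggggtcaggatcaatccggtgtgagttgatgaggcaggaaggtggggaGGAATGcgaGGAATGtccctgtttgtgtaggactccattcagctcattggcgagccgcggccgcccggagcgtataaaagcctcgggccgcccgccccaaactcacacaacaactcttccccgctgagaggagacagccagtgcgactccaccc
ANKRD1: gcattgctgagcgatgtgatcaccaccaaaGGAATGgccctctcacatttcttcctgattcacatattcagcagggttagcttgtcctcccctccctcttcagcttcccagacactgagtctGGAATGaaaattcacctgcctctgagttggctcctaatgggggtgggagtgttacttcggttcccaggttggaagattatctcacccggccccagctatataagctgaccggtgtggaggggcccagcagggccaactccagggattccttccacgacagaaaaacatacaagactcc
LATS2: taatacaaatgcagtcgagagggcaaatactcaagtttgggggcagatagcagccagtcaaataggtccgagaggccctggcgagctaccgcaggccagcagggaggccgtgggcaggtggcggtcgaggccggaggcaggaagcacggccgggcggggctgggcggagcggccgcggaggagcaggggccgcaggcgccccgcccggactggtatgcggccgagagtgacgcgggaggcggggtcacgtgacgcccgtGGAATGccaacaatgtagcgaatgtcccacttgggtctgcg
CCN2 held 3 copies, whose first bases lie at −169, −104 and −95 counted from the start, and 0.128% of all windows held 3 or more. ANKRD1 held 2 copies, at −220 and −128. LATS2 held 1 copy, at base 10 of the transcript. The windows of AMOTL2 and AJUBA at 1 of their 2 starts and that of YAP1 held 1 copy each, and the 2 windows of WWTR1 held none.

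The targeted gene was measured first. HPSE had 136, 172 and 146 normalized counts in SW480-KD1 and 269.9, 295 and 246 in SW480-NC, with no overlap between the lines. Normalized counts are gene counts that the authors divided by a size factor for each library. The mean in SW480-KD1 was 56.1% of that in SW480-NC, and limma put the log2 difference at −0.83 (adjusted p = 0.0547). DESeq2 gave HPSE an adjusted p of 0.000948. The paper judged the knockdown on protein, by western blot, and reports that it was efficient. The values here are RNA and do not measure the protein. A difference on the log2 scale is SW480-KD1 minus SW480-NC throughout. The libraries held 33221323 to 39802365 reads on the features, and the depths of the lines overlapped. Markers of colon epithelium were abundant, with EPCAM between 16775 and 18783 and KRT8 between 70496 and 90059 normalized counts. CDX2, an intestinal transcription factor, was between 19.0 and 40.3. KRT20, a keratin of differentiated colon epithelium, fell by 0.81 on the log2 scale (adjusted p = 0.00719 in limma). VIL1, the gene of villin, lay the other way without passing the adjusted threshold, with 8921, 9508 and 8854 normalized counts in SW480-KD1 and 7576, 7606 and 8524 in SW480-NC (log2 difference 0.20, adjusted p = 0.225 in limma). The 6 epithelial markers measured, of which KRT8 is the most abundant, summed to 111278 to 119777 normalized counts in SW480-KD1 and 128944 to 136556 in SW480-NC. The epithelial markers CDH1, KRT18 and CDX1 were also listed but were matched by no identifier. Of the fibroblast markers, COL1A2 was at 0 in 5 of 6 libraries, and COL1A1 had 198 to 359 normalized counts. The 5 fibroblast markers measured summed to 287 to 387 in SW480-KD1 and 231 to 272 in SW480-NC. The 3 endothelial markers PECAM1, VWF and CDH5 summed to 28.0 to 43.2 and 12.6 to 26.5. The listed blood cell markers PTPRC, CD68 and CD3E were matched by no identifier, so blood cell RNA was not assessed. The part of these markers in the differences given here was not tested. The libraries are from cultures of SW480 cells, and the paper describes no other cell type in them. In bulk RNA, fewer SW480 cells with a transcript and less of it per cell cannot be told apart.

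None of the 7 genes that reached a mean of 10 normalized counts differed between the cell lines at an adjusted p under 0.05. Limma on log2(normalized count + 1), adjusted by the Benjamini-Hochberg method over all 21703 features tested, called 0 of 7, where it called 0.802% of all features. At an unadjusted p under 0.05, 2 of the 7 were lower in SW480-KD1, namely WWTR1 and YAP1, and 0 were higher. Among all features, 8.15% were lower and 8.10% higher by this rule. With edgeR on the recovered reads the count was 0, with 2 at an unadjusted p under 0.05, where edgeR called 0.627% of all features and put 15.9% at an unadjusted p under 0.05. With DESeq2 it was 1, namely WWTR1, where DESeq2 called 4.55% of the features to which it gave an adjusted p. No overlap between the lines was seen for WWTR1, which was lower, and for LATS2, which was higher, against 12.0% of all features lower and 11.4% higher in this way. The median log2 difference of the 7 genes was −0.03, and that of all features tested was −0.0048. These shares rest on 7 genes. An exact permutation test of a single gene cannot go below p = 0.1 with 3 libraries against 3.

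WWTR1 (ENSG00000018408, minus strand of chromosome 3, 149517235 to 149736714 in GENCODE 29 on GRCh38) codes for TAZ, which has no DNA-binding domain of its own and acts through TEAD factors. It had 1507, 1451 and 1490.4 normalized counts in SW480-KD1 and 2146, 2044 and 1717 in SW480-NC. All SW480-KD1 libraries lay below all SW480-NC libraries, and they lay close together, at 1483 ± 28.5 (SD, n = 3) against 1969 ± 224 (SD, n = 3). The level in SW480-KD1 was 75.3% of that in SW480-NC. The log2 difference was −0.40 (standard error 0.10, 95% interval −0.63 to −0.17, adjusted p = 0.124 with limma). DESeq2 gave an adjusted p of 0.0312, and edgeR gave 0.125. DESeq2 made more false calls than limma or edgeR on simulated counts, which does not decide this call. When 1 library was left out, the value ranged from −0.50 to −0.34, and the adjusted p from 0.0637 (without SW480-NC replicate 3) to 0.317.

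YAP1 (ENSG00000137693, plus strand of chromosome 11, 102110461 to 102233423) codes for the paralog of TAZ. It had 6517, 6211 and 7036 normalized counts in SW480-KD1 and 7761, 7993 and 6950.4 in SW480-NC. Replicate 3 of SW480-KD1 lay above replicate 3 of SW480-NC, so the groups overlapped. The means were 6588 ± 417 (SD, n = 3) and 7568 ± 547 (SD, n = 3), a difference of −0.20 on the log2 scale (95% interval −0.38 to −0.01, adjusted p = 0.278 in limma). A change of 2-fold in either direction lies outside this interval, as it does for WWTR1. Per kilobase of annotated exon, WWTR1 RNA came to 22.2% to 24.5% of YAP1 RNA in the SW480-KD1 libraries and to 25.9% or more in each SW480-NC library. Whether the 2 genes differ from each other in their response was not tested.

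The TEAD factors, which carry the DNA-binding domain of the complex, were abundant in both lines. TEAD1 (ENSG00000187079, plus strand of chromosome 11, 12674591 to 12944483) had 5254, 6965 and 5712 normalized counts in SW480-KD1 and 4299, 7447 and 5956 in SW480-NC. The SW480-KD1 libraries lay inside the range of SW480-NC. The means of 5977 ± 886 (SD, n = 3) and 5901 ± 1575 (SD, n = 3) differed by less than this spread, by 0.04 on the log2 scale (95% interval −0.41 to 0.50, adjusted p = 0.935 in limma). Its sign turned without SW480-KD1 replicate 2, to −0.07, and without SW480-NC replicate 1, to −0.17. TEAD4 (ENSG00000197905, plus strand of chromosome 12, 2959330 to 3040673) had 1198, 1274 and 1114 normalized counts in SW480-KD1 and 1383, 1264 and 1349.8 in SW480-NC. Replicate 2 of SW480-KD1 lay just above replicate 2 of SW480-NC, and the other libraries did not cross. The log2 difference was −0.16 (95% interval −0.36 to 0.05, adjusted p = 0.422 in limma).

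The other 2 TEAD genes had higher means in SW480-KD1, without passing the adjusted threshold. TEAD2 had 725, 796 and 761 normalized counts in SW480-KD1 and 561, 594 and 611 in SW480-NC, a difference of 0.37 on the log2 scale (standard error 0.09, adjusted p = 0.123 in limma). TEAD3 had 2334, 2463 and 2259 against 1932, 1935 and 2116, a difference of 0.24 on the log2 scale (adjusted p = 0.204 in limma). For both genes every SW480-KD1 library lay above every SW480-NC library. VGLL4, a cofactor that competes with YAP for TEAD, was also higher in every SW480-KD1 library, at 1148 ± 87.4 (SD, n = 3) against 995 ± 29.5 (SD, n = 3), a difference of 0.20 on the log2 scale (adjusted p = 0.318 in limma). VGLL3, another cofactor, had overlapping libraries and a difference of −0.18 on the log2 scale (adjusted p = 0.587 in limma). Of the 6 genes listed in this group, 4 were tested, and 0 of the 4 passed the adjusted threshold in limma, edgeR or DESeq2. Limma and edgeR called 0.802% and 0.627% of all features, and DESeq2 4.55% of those to which it gave an adjusted p. At an unadjusted p under 0.05 from limma 2 of the 4 were higher, TEAD2 and TEAD3, beside 8.10% of all features. The libraries did not overlap for 3 higher genes, beside 11.4% of all features. These shares rest on 4 genes.

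Counted per kilobase of exon, the 4 TEAD genes together came to 2258 to 2562 in the SW480-KD1 libraries and 2073 to 2360.3 in the SW480-NC libraries, so the sums overlapped. Within this sum, TEAD4 took 27.3% to 29.3% in SW480-KD1 and 29.7% to 37.0% in SW480-NC. TEAD2 took 11.6% to 12.5% against 9.37% to 10.1%, and TEAD3 took 31.6% to 33.8% against 26.9% to 30.6%. For these 3 genes the shares did not overlap between the cell lines, while those of TEAD1 did. Shares of 1 sum move against each other by construction, and they were not tested.

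**Figure D1:**
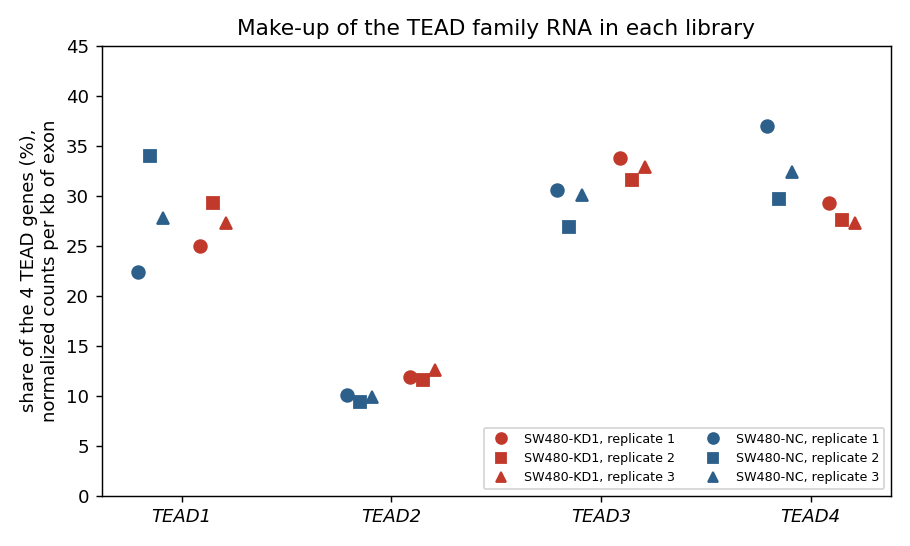
Share of each TEAD gene (%, y axis) in the summed normalized counts per kilobase of exon of TEAD1 to TEAD4, 1 point per library, SW480-NC in blue and SW480-KD1 in red, with the shape giving the replicate number. TEAD4 takes a smaller share in the SW480-KD1 libraries (27.3% to 29.3%) than in the SW480-NC libraries (29.7% to 37.0%), TEAD2 and TEAD3 a larger one, and the points of TEAD1 overlap.

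Among the target genes, CCN1 (ENSG00000142871, plus strand of chromosome 1, 85580761 to 85583962) codes for a matricellular protein that binds integrins and heparan sulfate proteoglycans. It had 609, 679 and 661 normalized counts in SW480-KD1 and 649, 736 and 612 in SW480-NC. The ranges lay over each other, at 650.0 ± 36.2 (SD, n = 3) and 665 ± 63.8 (SD, n = 3). The log2 difference was −0.03 (95% interval −0.28 to 0.22, adjusted p = 0.912 in limma), and its sign turned without SW480-KD1 replicate 1, to 0.01, and without SW480-NC replicate 2, to 0.04.

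CCN2 (ENSG00000118523, minus strand of chromosome 6, 131948176 to 131951373), whose promoter holds 3 copies of the core, codes for connective tissue growth factor, a related matricellular protein. It had 154, 117 and 234 normalized counts in SW480-KD1 and 139, 97.5 and 125 in SW480-NC. Replicate 3 of SW480-KD1 stood above the rest, and the other 5 libraries overlapped. The means were 168 ± 59.8 (SD, n = 3) and 121 ± 21.2 (SD, n = 3), a difference of 0.43 on the log2 scale (95% interval −0.19 to 1.05, adjusted p = 0.465 in limma). Without SW480-KD1 replicate 3 it was 0.17, and without SW480-KD1 replicate 2 it was 0.66. The interval holds a rise of 2-fold, so such a rise could not be told from no change for CCN2 with these libraries.

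LATS2 (ENSG00000150457, minus strand of chromosome 13, 20973032 to 21061547) is both a kinase that restrains YAP and TAZ and one of their targets, and so a feedback gene. It had 463, 506 and 506 normalized counts in SW480-KD1 and 415, 441 and 428 in SW480-NC. Every SW480-KD1 library lay above every SW480-NC library, at 492 ± 24.8 (SD, n = 3) against 428 ± 13.0 (SD, n = 3). The log2 difference was 0.20 (95% interval −0.03 to 0.42, adjusted p = 0.360 in limma). It lay between 0.18 and 0.24 when 1 library was left out, with adjusted p between 0.400 and 0.572.

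ANKRD1 (ENSG00000148677, minus strand of chromosome 10, 90912096 to 90921276), which codes for a nuclear ankyrin-repeat protein of muscle and a common reporter of YAP activity, had 3 reads in SW480-KD1 replicate 3 and 0 reads in the other 5 libraries. A count of 0 allows up to 3 reads, or 2.71 to 3.18 normalized counts in these libraries, which covers counting error only. With 3 reads in 1 library and 0 in the rest, no fold change is given for ANKRD1.

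Levels of the 7 genes were compared with each other only per kilobase of annotated exon. Among these 7 in SW480-NC, YAP1 was highest, at 1344 normalized counts per kilobase (1235 to 1419.7 over 3 libraries). TEAD4 followed at 738 (700.4 to 766) and TEAD1 at 637 (464 to 803), and the ranges of these neighbours overlapped. WWTR1 came next at 367 (319.9 to 399.9) and CCN1 at 291 (267 to 321), again with overlapping ranges. LATS2 at 77.7 and CCN2 at 51.6 were lower, with ranges apart from each other. The annotation the authors counted with is not given in the sources used here, so these lengths may differ from theirs.

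A further 19 genes known as YAP or TAZ targets were listed, and 14 of them were tested. Limma and edgeR called 0 of the 14 at an adjusted p under 0.05, and DESeq2 called 1, NT5E. Their median log2 difference was −0.20, with 11 of 14 below 0, beside −0.0048 for all features, of which 11003 of 21703 were below 0. At an unadjusted p under 0.05 from limma, 4 of the 14 were lower (NT5E, MYOF, ASAP1 and CRIM1) and 0 were higher, beside 8.15% of all features lower and 8.10% higher. The libraries did not overlap for 6 lower genes and 1 higher gene, beside 12.0% and 11.4% of all features. NT5E, the ectonucleotidase CD73, had 2695, 2369 and 2553 normalized counts in SW480-KD1 and 3203, 3328 and 3079 in SW480-NC. Its log2 difference was −0.34 (95% interval −0.52 to −0.16, adjusted p = 0.109 from limma and 0.0441 from DESeq2). MYOF, a membrane-repair protein, was at −0.27, ASAP1, a regulator of ARF GTPases, at −0.27, and CRIM1 at −0.19, with adjusted p from 0.116 to 0.251 from limma. These 3 genes were named after their values were seen. GLI2, a Hedgehog transcription factor, had the lowest value, −0.68 (adjusted p = 0.453 in limma), with 71.6 to 214 normalized counts in SW480-KD1 against 189 to 305 in SW480-NC. CCDC80 at 0.86 and NUAK2, a kinase, at 0.59 were the highest, and neither had more than 79.5 normalized counts in any library (adjusted p = 0.333 and 0.329 in limma).

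**Figure D2:**
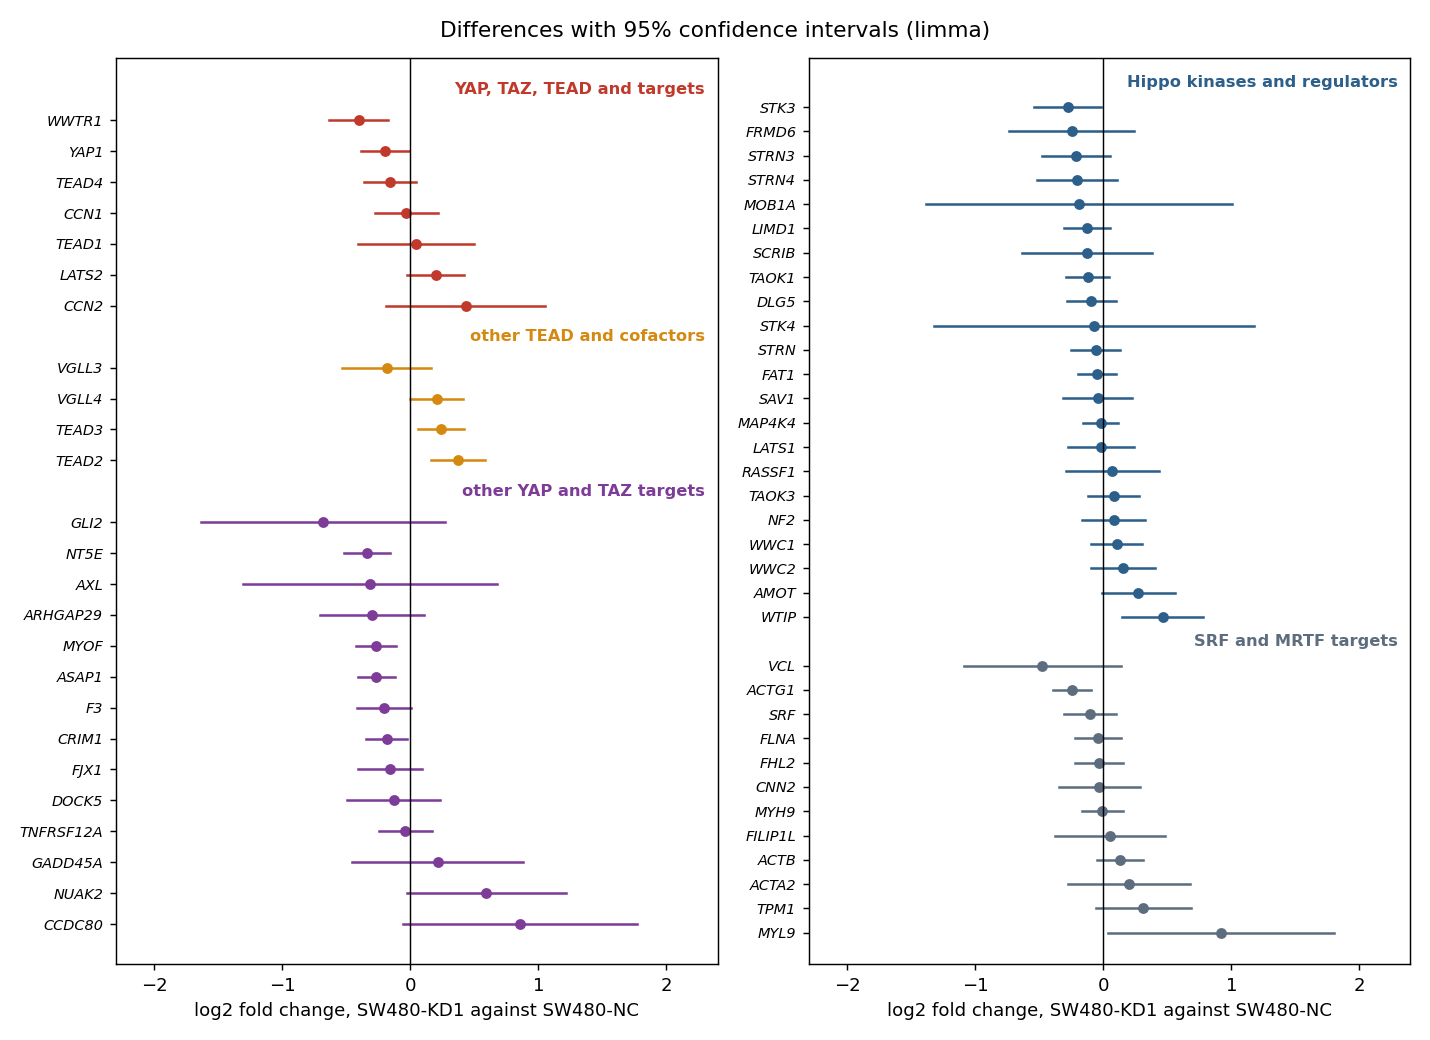
Log2 difference of SW480-KD1 against SW480-NC (x axis) for the 59 listed genes that were tested, each point with its 95% interval from limma, grouped by list. Unadjusted intervals lie wholly below 0 for WWTR1, YAP1, NT5E, MYOF, ASAP1, CRIM1, STK3 and ACTG1, and wholly above 0 for TEAD2, TEAD3, WTIP and MYL9. None of these genes passed the adjusted threshold in limma. Of the 14 further YAP and TAZ targets, 11 lie below 0. The widest intervals among the Hippo regulators are those of STK4 and MOB1A.

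The kinase cassette and its upstream regulators held no called gene. Of 29 listed genes 22 were tested, and limma, edgeR and DESeq2 each called 0 of the 22. Beside this, limma and edgeR called 0.802% and 0.627% of all features, and DESeq2 4.55% of those to which it gave an adjusted p. At an unadjusted p under 0.05 from limma 1 was higher, WTIP, and 1 was lower, STK3. Of all features 8.10% were higher and 8.15% lower by this rule. The libraries did not overlap for 2 higher and 2 lower genes, beside 11.4% and 12.0% of all features. The median log2 difference was −0.05, with 7 above 0 and 15 below. WTIP, a LIM protein related to AJUBA that restrains LATS kinases, had 175, 199.6 and 194 normalized counts in SW480-KD1 and 137, 149.7 and 125 in SW480-NC, a difference of 0.46 on the log2 scale (95% interval 0.15 to 0.78, adjusted p = 0.169 in limma). AMOT, which binds YAP in the cytoplasm, was at 0.27 (adjusted p = 0.323 in limma), with no overlap between the lines. STK3, the kinase MST2, was at −0.28 (adjusted p = 0.287 in limma), also with no overlap. LIMD1, the other lower gene with no overlap, was at −0.13 (adjusted p = 0.456 in limma). FRMD6, a FERM-domain protein with overlapping libraries, was at −0.25 (adjusted p = 0.602 in limma). LATS1, the paralog of LATS2, was at −0.02 and NF2, the gene of merlin, at 0.08, both with overlapping libraries. LIMD1, LATS1 and NF2 were named after their values were seen.

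Libraries with the same replicate number stood together for some of these genes, which were named after their values were seen. STK4, the kinase MST1, had 1196 and 1198 normalized counts in replicate 2 of SW480-KD1 and SW480-NC, and 3377 to 3876 in the other 4 libraries. MOB1A, which activates LATS kinases, had 2428 and 2734 in the replicate 2 libraries and 6584 to 8346 in the others. TEAD1 was highest in both replicate 2 libraries and lowest in both replicate 1 libraries. For STK4 the 95% interval of the log2 difference was wide, −1.32 to 1.18, and for MOB1A −1.39 to 1.00. Over all 21703 features tested, both libraries of number 2 lay at or below 50% of the lowest other library for 62 features. Those of number 1 did so for 49 and those of number 3 for 67. Both lay at 2-fold or more of the highest other library for 13, 26 and 12 features, for numbers 2, 1 and 3. Libraries of unlike number were not counted in this way, so these counts have no baseline. The table also holds 33265 assembler loci without symbols, and whether reads of STK4 and MOB1A were counted under such loci in some libraries was not tested, so the values are those under the Ensembl identifiers alone.

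**Figure D3:**
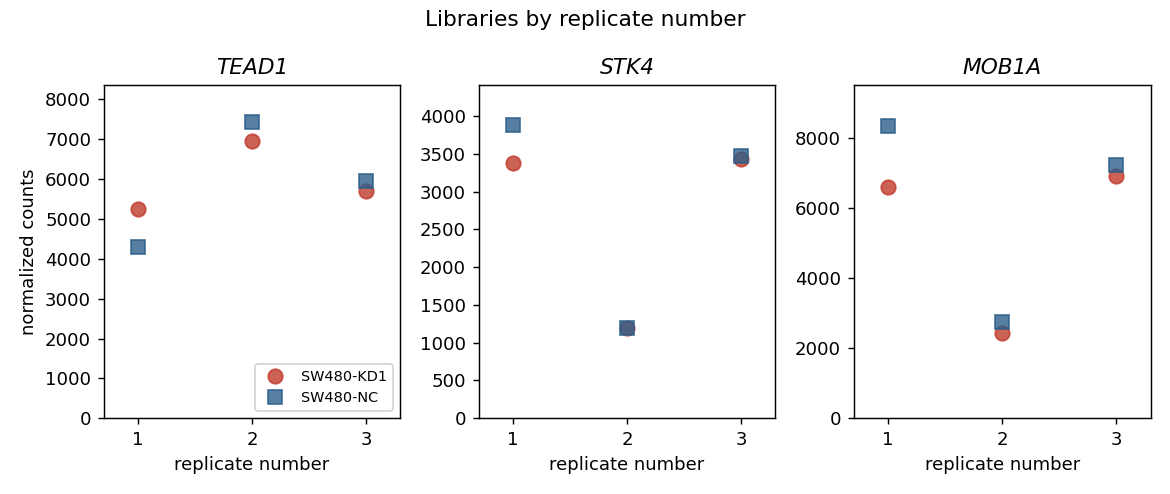
Normalized counts (y axis, from 0) of TEAD1, STK4 and MOB1A by the replicate number in the sample titles (x axis), 1 point per library, SW480-NC as blue squares and SW480-KD1 as red circles. Both libraries numbered 2 are the lowest for STK4 (1196 and 1198) and MOB1A (2428 and 2734) and the highest for TEAD1 (6965 and 7447).

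SRF and its coactivators, the MRTF proteins, form another program that responds to actin and shares targets such as CCN1 and CCN2 with YAP. Of 15 listed genes 12 were tested, and limma, edgeR and DESeq2 each called 0 of the 12. Beside this, limma and edgeR called 0.802% and 0.627% of all features, and DESeq2 4.55% of those to which it gave an adjusted p. At an unadjusted p under 0.05 from limma, MYL9 was higher and ACTG1 lower, beside 8.10% of all features higher and 8.15% lower. The median log2 difference was −0.02. ACTG1, cytoplasmic gamma-actin, had 39656 to 44528 normalized counts in SW480-KD1 and 46618 to 51664 in SW480-NC, a difference of −0.25 on the log2 scale (adjusted p = 0.135 in limma). MYL9, a myosin light chain, was at 0.92 (adjusted p = 0.293 in limma) and had at most 42.4 normalized counts in a library. TPM1, a tropomyosin, was at 0.31 and VCL, vinculin, at −0.48, both with overlapping libraries (adjusted p = 0.382 and 0.419 in limma).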

How the data were processed

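RNA of 3 SW480-KD1 and 3 SW480-NC cultures was sequenced on an Illumina HiSeq platform by the authors. The submitters' processing notes name HISAT2, DESeq2 and GRCh38, the paper names Cuffdiff, and the counting tool is not given in the sources used here. Each deposited value is a signal, a count that the authors divided by 1 size factor per library, for 25927 Ensembl identifiers and 33265 assembler loci without symbols. Symbols were matched for 25595 identifiers. Each value was a whole multiple of its library's step within 0.01 reads (100% of values), so reads were recovered, 33221323 to 39802365 per library.

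Log2(value + 1) was tested with limma 3.58.1 (R 4.3.3, intensity trend) over 21703 features with a mean of at least 10, with Benjamini-Hochberg adjustment. Alternatives used edgeR 4.0.16 or DESeq2 1.42.0 with these reads, or varied pseudocount, filter, scaling, variance model, block and left-out libraries. On simulated counts with known changes, all 3 tools made a larger share of false calls than their threshold allows, DESeq2 the largest. The simulation was a single draw, with larger changes than those given here and with dispersions estimated by edgeR. It therefore decides no single DESeq2 call, be it HPSE, WWTR1 or NT5E. The rule for named genes took all members, HPSE and, per list, those called plus the 2 highest and 2 lowest. STK4, MOB1A, LIMD1, LATS1, NF2, MYOF, ASAP1, CRIM1, KRT8 and COL1A2 were named outside it. The members and lists were chosen with earlier results of these data known. Exon lengths and positions are from GENCODE 29, promoters from RefSeq. Figures used matplotlib 3.10.9.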

Additional observations from a re-analysis of the deposited data

How the results depend on the processing

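Of 126 refits of the 7 genes' log2 fold changes, 120 kept both direction and side of the adjusted threshold. A further 1 passed it (WWTR1 in DESeq2, −0.41), and 5 turned sign, none past the threshold. Refits that changed only the filter, the intensity trend or the block could not alter a fold change. Nor could median-of-ratios factors, which matched those of the authors. In these refits only the adjusted p could move. TEAD1 turned to −0.027 with robust variance and array weights, to −0.071 without SW480-KD1 replicate 2 and to −0.17 without SW480-NC replicate 1, and CCN1 to 0.015 when SW480-KD1 replicate 1 was left out and 0.044 when SW480-NC replicate 2 was. With 1 library left out, all values of TEAD1 ranged from −0.17 to 0.23 and those of CCN1 from −0.089 to 0.044. The count of YAP, TAZ, TEAD and target genes called was 1 in DESeq2 and 0 in the other alternatives. DESeq2 called 1 further YAP and TAZ target (NT5E), and quantile normalization called 1 SRF and MRTF target (ACTG1). Over all features the 174 calls became 11 without an intensity trend, 429 with robust variance and array weights, 756 in DESeq2, and 29 to 93 with 1 library left out, fewest without SW480-NC replicate 1. With the replicate number as a block 12 features were called. Over all features tested together no pairing by number was seen: same-numbered libraries' deviations correlated at 0.0025, −0.020 and 0.0074. This measure could miss a pairing limited to some genes. SW480-KD1 replicate 1 correlated best with SW480-NC replicate 2, at 0.024. Single genes did stand together by number. The block lowered the standard errors of STK4, MOB1A and TEAD1 from 0.54, 0.51 and 0.20 to 0.093, 0.090 and 0.10. That of YAP1 rose from 0.079 to 0.099. What the numbers stand for was not tested. Depth limits ANKRD1, at most 3 reads, and the spread of 3 libraries limits CCN2.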
